A study of Homo sapiens with 15 samples.

Results

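BRCA1, BARD1, BRCA2, PALB2, RAD51AP1, EXO1, BLM, FANCD2 and FANCI are genes of homologous recombination and of the Fanconi anaemia pathway that works beside it. They were chosen by gene name for that function, and all annotated regions that carry a gene's name were summed. They make up 9 of 19531 gene names and 86 of 68625 regions in the count tables. All 9 passed the filter on low counts in every comparison below.

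The RNA came from U2OS, an established human osteosarcoma cell line. Growing cells were given 4-thiouridine, a uridine analogue that enters new RNA, and EdU, a thymidine analogue that enters replicating DNA, for 45 minutes, and were then fixed in glyoxal and methanol. Flow sorting on EdU signal and DNA content gave the groups labelled G1, Early_S, Late_S and G2 (written G2/M elsewhere in the labels), and 500 ng of RNA per sample was alkylated and made into QuantSeq libraries of transcript 3′ ends. One more group, No_alkylation, skipped the chemical step, and the labels do not give the phase of its cells. Every group has 3 libraries, 15 in all, and every cell in the study received both analogues. The title speaks of synchronised cells, whereas the protocol sorts an asynchronous culture. Nothing in the labels says that the 3 libraries of a group came from separate cultures, so p-values measure only the spread between these libraries.

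Homologous recombination repairs a DNA double-strand break by copying an intact sister chromatid, and is therefore known mainly from S and G2 phase. BRCA1 bound to BARD1 promotes the trimming of broken ends, which EXO1 and the BLM helicase with DNA2 extend into long single strands. PALB2 joins BRCA1 to BRCA2, which acts on that single strand, and RAD51AP1 helps the strand invade the sister. FANCD2 and FANCI form a clamp that is ubiquitinated at DNA crosslinks and stalled forks and calls in nucleases and recombination factors.

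Regulatory sequences of these genes are shown first, because genes of this pathway are textbook targets of cell cycle transcription factors. RefSeq promoter windows (GRCh38.p14, 250 bases before and 50 after the annotated start) were found for 8 of the 9 genes, 10 windows in all, since BRCA1 and EXO1 have 2 starts each. The letters bound by E2F factors were searched on both strands as TTTCCCGC, TTTGGCGC, TTTCGCGC and TTTGCCGC. They occurred in 2 of the 8 genes, EXO1 and FANCD2, and in 3.31% of all 35116 promoter windows. For every motif, a gene counts if any of its windows has a match, whereas the percentages are of single windows. The units are therefore unlike. In the lines below 30 bases are printed 5′ to 3′ on the gene's own strand, with the match in capitals. The EXO1 match begins at position 5 of the transcript (chr1:241848197-241848226, plus strand), and the FANCD2 match, in the opposite orientation, begins 2 bases upstream of the start (chr3:10026424-10026453, plus strand).
EXO1: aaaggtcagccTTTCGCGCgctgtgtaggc
FANCD2: cgtcgggcctgGCGGGAAAgtcgaaaacta

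CCAAT, the letters known to bind NF-Y, occurred on either strand in 4 of the 8 genes, BRCA1, PALB2, RAD51AP1 and BLM, and in 34.6% of all windows. BRCA1 has it 175 bases upstream of its start (chr17:43125521-43125550, minus strand), PALB2 26 bases upstream (chr16:23641318-23641347, minus strand) and RAD51AP1 70 bases upstream (chr12:4538809-4538838, plus strand). BLM has 3 matches within 141 bases, of which the one 46 bases upstream is shown (chr15:90717289-90717318, plus strand). The other BRCA1 window and the other EXO1 window held none of the motifs searched.
BRCA1: agactgggtggCCAATccagagccccgaga
PALB2: tggtggatttaATTGGccggagtttagggc
RAD51AP1: ggctggtgatgATTGGacgactggtaacag
BLM: agtgcgacagtATTGGtcggcttccccagg
TTTGAA, the letters of the cell cycle homology region, occurred in 0 of the 8 genes and in 15.2% of all windows. These matches are descriptions of the letters in the windows, not evidence of binding.

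The libraries held 16096695 to 21803972 reads in the listed regions. Reads with a T-to-C conversion, called T>C reads, numbered 1812606 to 4037464 in the 12 alkylated libraries and 175212 to 182253 without alkylation. Over the 12 alkylated libraries the 9 genes were covered by 1547 (PALB2) to 16665 (FANCI) reads, and their multimapped reads were at most 1.11% (BRCA2). VIM, SPARC, COL1A1 and CDH2, 4 of 8 mesenchymal markers, each lay over 10 CPM, and the 8 summed to 4396 to 6275 CPM per library, with TWIST1 at 0 and COL1A2 near 0. The 6 epithelial markers summed to 346 to 1008 CPM, nearly all of it KRT8, and the 6 blood markers to at most 5.13 CPM. The 5 G2/M gate markers (CCNA2, CCNB1, PLK1, CDC20, AURKA) summed to 534 to 581 CPM in G1 and 1495 to 1544 CPM in G2. In bulk libraries, fewer cells with a transcript and less of it per cell cannot be told apart.

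Steady-state level, all reads of a gene normalised to sequencing depth (CPM), asks how large a part of the reads of a library each mRNA made up. It is relative to the other reads of that library and does not give an amount per cell. The words held, rose and fell, said of a level, refer to this relative value. Across the 4 phases 6 of the 9 genes were called by edgeR's quasi-likelihood F-test at an adjusted p under 0.05, where 34.1% of all 13755 genes tested were called. FANCI (adjusted p = 0.00106), FANCD2 (0.00253), BARD1 (0.0198), BLM (0.0357), PALB2 (0.0435) and EXO1 (0.0465) were called. BRCA1 (0.420), BRCA2 (0.351) and RAD51AP1 (0.216) were not. The called genes did not share 1 shape: FANCD2 and FANCI were lowest in G1, PALB2 and BARD1 highest in G1, EXO1 lowest in Early_S, and BLM highest in G2. With 1 library left out in turn, FANCD2 and FANCI were called in all 12 fits. BARD1 lost the call in 3 (without library 2 of G1 or library 2 or 3 of Late_S), BLM and EXO1 in 7 and PALB2 in 9. PALB2 kept it only without library 2 of Early_S, Late_S or G2, EXO1 without library 3 of G1, library 1 of Early_S or any of G2, and BLM without library 1 or 2 of G1, 1 of Early_S, 3 of Late_S or 1 of G2. With the region of most reads alone BARD1 (adjusted p = 0.123), BLM (0.0671) and EXO1 (0.0506) lost the call. EXO1 has only 1 region, so its own counts were the same in that fit and only those of other genes changed. PALB2 lost the call without the filter on low counts (0.0609).

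**Figure D1:**
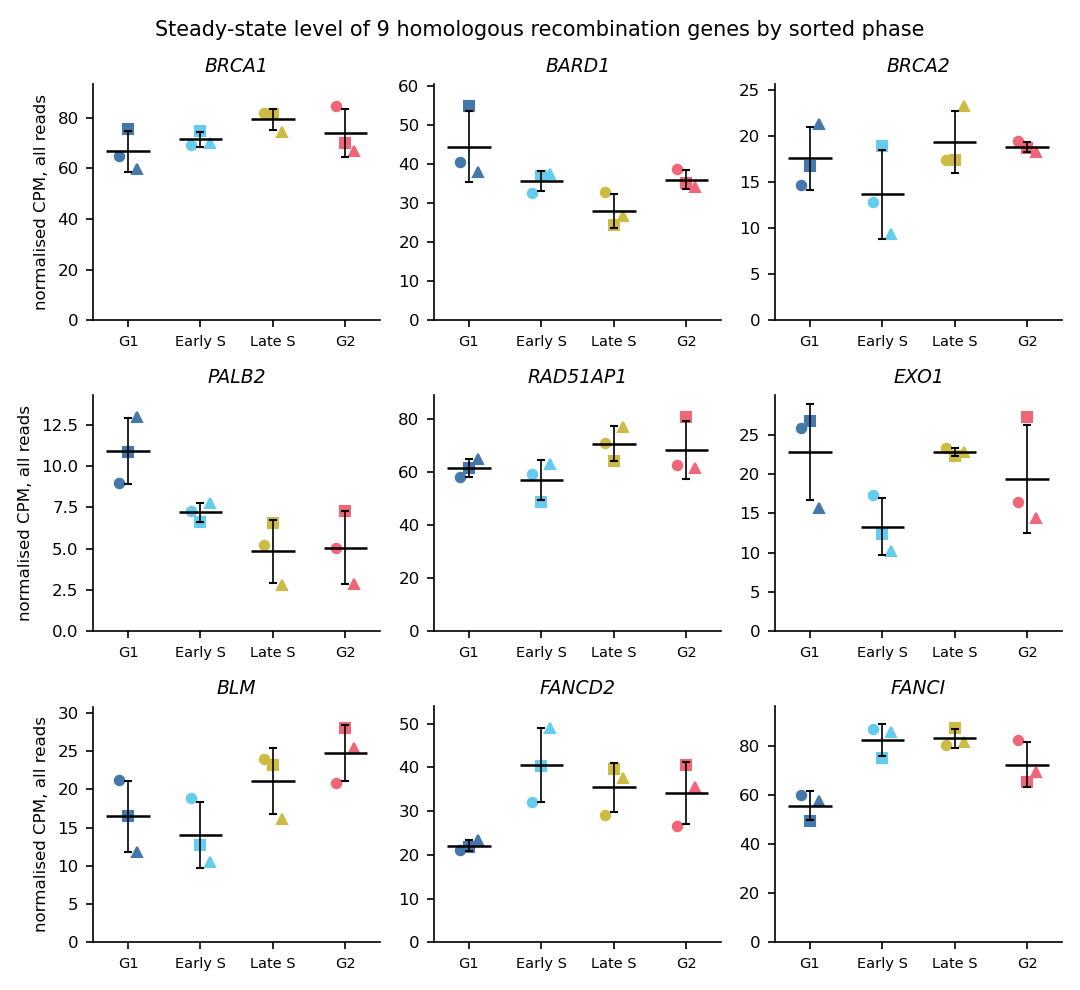
Steady-state level of each gene in normalised CPM of all reads (vertical axis, from 0), by sorted phase (horizontal axis); circles, squares and triangles are libraries 1, 2 and 3 of a phase, and the black bar with whiskers is the mean ± SD (n = 3). The G1 libraries of FANCD2 and FANCI lie below all libraries of the other 3 phases, and the G1 libraries of PALB2 lie above them.

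BRCA1, the scaffold that promotes end resection, held 65.1, 75.4 and 59.7 CPM in the G1 libraries, 69.1, 74.9 and 70.1 in Early_S, 81.9, 81.6 and 74.3 in Late_S and 84.6, 70.0 and 66.9 in G2. Its 4 phase means, 66.7 ± 7.98, 71.4 ± 3.11, 79.3 ± 4.31 and 73.8 ± 9.46 CPM (SD, n = 3), did not differ in any of the 6 pairs of phases. The largest difference, Late_S over G1, was 0.25 ± 0.13 on the log2 scale (SE, adjusted p = 0.176), and those groups overlapped.

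BARD1, the ubiquitin ligase partner that BRCA1 needs for its stability, was lower in Late_S than in G1. It held 40.5, 54.9 and 38.1 CPM in G1, 32.7, 36.9 and 37.4 in Early_S, 32.7, 24.4 and 26.8 in Late_S and 38.9, 35.2 and 34.1 in G2. Every G1 library lay above every Late_S library, and Late_S was lower than G1 by edgeR (log2 change -0.67 ± 0.17, adjusted p = 0.00438). Its order was G1, G2, Early_S, Late_S, and no neighbours in that order differed by the test. Without library 2 of G1 the Late_S call was lost (adjusted p = 0.0723), as it was with the 3′ terminal region alone (0.0717). Whether the change of BARD1 differs from that of BRCA1 was not tested. The mean percentage of BARD1 reads that are T>C reads also fell, from 72.2% in G1 to 33.2% in Late_S. Its level was 3.04-fold higher without alkylation. The part of labelling and alkylation in the BARD1 level was not tested.

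BRCA2, which PALB2 brings to the trimmed ends, was read at low counts (148 to 509 reads per alkylated library) and passed no test of level. It held 14.7, 16.7 and 21.4 CPM in G1, 12.8, 18.9 and 9.39 in Early_S, 17.5, 17.4 and 23.3 in Late_S and 19.4, 18.8 and 18.3 in G2. The groups overlapped in every pair of phases, and the Early_S libraries alone ran from 9.39 to 18.9 CPM. PALB2, the bridge between BRCA1 and BRCA2, had the fewest reads (61 to 225 per alkylated library). Its values were 8.96, 10.9 and 13.0 CPM in G1, 7.28, 6.59 and 7.74 in Early_S, 5.20, 6.56 and 2.79 in Late_S and 5.02, 7.26 and 2.87 in G2. All 3 G1 libraries lay above the 9 others. PALB2 was higher in G1 than in G2 (log2 1.11 ± 0.40, adjusted p = 0.0411) and lower in Late_S than in G1 (-1.17 ± 0.40, adjusted p = 0.0326). Neither call held in every fit that left out 1 library. Leaving out any G1 library or library 1 or 3 of G2 ended the G1 against G2 call (adjusted p up to 0.192). So did the region of most reads alone (0.0688) and no filter on low counts (0.0591). Leaving out library 2 or 3 of G1 or library 1 or 3 of Late_S ended the Late_S against G1 call (up to 0.178). The share of all reads that are T>C reads also fell from G1 to Late_S and G2, from 22.3% to 10.0% and 10.1%, and most PALB2 reads are T>C reads. Its part in the level of PALB2 was not tested.

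RAD51AP1, the cofactor of strand invasion, held 58.2, 61.7 and 65.2 CPM in G1, 59.4, 48.6 and 63.0 in Early_S, 71.0, 64.1 and 77.2 in Late_S and 62.6, 80.9 and 61.5 in G2. All 3 Late_S libraries lay above all 3 Early_S libraries, yet the difference did not pass (log2 0.31 ± 0.14, adjusted p = 0.147).

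EXO1 and BLM, which extend resection, had their lowest means in Early_S, as did BRCA2 (13.7 CPM) and RAD51AP1 (57.0 CPM). In Early_S EXO1 differed from G1 by the test and BLM did not (BLM log2 -0.23 ± 0.25, adjusted p = 0.573, groups overlapping). EXO1, the 5′ to 3′ exonuclease, held 25.9, 26.7 and 15.7 CPM in G1, 17.4, 12.3 and 10.3 in Early_S, 23.3, 22.3 and 22.8 in Late_S and 16.4, 27.3 and 14.5 in G2. It fell by 0.77 ± 0.25 on the log2 scale from G1 to Early_S (adjusted p = 0.0223), although library 3 of G1 lay within the Early_S range. It rose again by 0.77 ± 0.25 from Early_S to Late_S (adjusted p = 0.0404), where the groups did not overlap. The fall was lost without library 1 or 2 of G1 or library 2 or 3 of Early_S (adjusted p up to 0.121). The rise was lost without library 1 of G1, library 2 or 3 of Early_S or any Late_S library (up to 0.180), and DESeq2 did not call EXO1 across phases (adjusted p = 0.0613). BLM, the helicase, held 21.1, 16.4 and 11.9 CPM in G1, 18.8, 12.7 and 10.5 in Early_S, 24.0, 23.1 and 16.1 in Late_S and 20.8, 28.0 and 25.3 in G2. Its G2 libraries all lay above its Early_S libraries (log2 0.82 ± 0.25, adjusted p = 0.0175). That was the only 1 of the 6 phase pairs in which BLM was called, and it was lost without library 2 or 3 of Early_S or library 2 of G2 (adjusted p up to 0.111), and with its 3′ terminal region alone (0.0611).

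FANCD2 and FANCI, the 2 subunits of the Fanconi clamp, both rose in relative level between G1 and S phase. FANCD2 held 21.1, 21.7 and 23.5 CPM in G1, 32.2, 40.4 and 49.0 in Early_S, 29.2, 39.7 and 37.6 in Late_S and 26.5, 40.5 and 35.4 in G2. FANCI held 60.2, 49.3 and 57.8 CPM in G1, 87.0, 74.9 and 85.7 in Early_S, 80.3, 87.4 and 81.6 in Late_S and 82.6, 65.2 and 69.4 in G2. For both genes every G1 library lay below all 9 libraries of the other phases. From G1 to Early_S FANCD2 rose by 0.87 ± 0.19 on the log2 scale (adjusted p = 5.47e-04) and FANCI by 0.57 ± 0.13 (adjusted p = 7.77e-04). Both calls held in all 12 fits that left out 1 library, with adjusted p up to 0.0114 and 0.0103. G1 was also below Late_S (FANCD2 0.68 ± 0.19 higher in Late_S, adjusted p = 0.00785; FANCI 0.58 ± 0.13, adjusted p = 7.55e-04). It was below G2 as well (FANCD2 -0.63 ± 0.19 in G1 against G2, adjusted p = 0.0141; FANCI -0.38 ± 0.13, adjusted p = 0.0286). For FANCD2 the Late_S call was lost without library 2 of Late_S (0.0519) and the G2 call without library 1 of G1 or 2 of G2 (up to 0.105). The G2 call of FANCI was lost without library 2 or 3 of G1 or library 1 of G2 (up to 0.188). Early_S, Late_S and G2 did not differ from each other for either gene, and these pairs of phases share libraries, so their values are not independent.

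Counted by pair of phases, 3 of the 9 genes were called in Early_S against G1 (24.3% of all genes tested), FANCD2 and FANCI up and EXO1 down. In Late_S against G1 there were 4 (19.9% of all genes), FANCD2 and FANCI up and BARD1 and PALB2 down, and in G1 against G2 there were 3 (21.1%), PALB2 up and FANCD2 and FANCI down. EXO1 in Late_S against Early_S (11.2%) and BLM in G2 against Early_S (19.3%) were the only 1 in each. In G2 against Late_S edgeR called 0 of the 9 (0.145% of all genes), with 1, BARD1, at an unadjusted p under 0.05, and DESeq2 called 0. The median log2 change of the 9 was -0.23 in Early_S against G1, beside 0.00 for all genes, and 0.20 in Late_S against G1, beside -0.01.

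The labelled share, the percentage of a gene's reads that are T>C reads, asks how much of the RNA present was made during the 45-minute pulse. In the No_alkylation libraries, which measure the background, the mean share of the 9 genes ran from 0.114% (BLM) to 1.35% (BRCA1). All 9 were higher with alkylation in an edgeR model of T>C against other reads over the 15 libraries, where 84.4% of 12909 genes were called. The log2 differences in that ratio ran from 3.15 ± 0.77 (FANCI, adjusted p = 3.33e-04) to 10.41 ± 1.53 (PALB2, adjusted p = 1.66e-07). Every one of the 12 alkylated libraries exceeded all 3 No_alkylation libraries for 8 genes, the exception being EXO1 through library 3 of G2. The share of all genes that separate so was not counted.

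Over the 12 alkylated libraries pooled, the 9 genes covered nearly the whole range of labelled shares. FANCI stood lowest at 6.52%, percentile 8.75 of 11474 genes, followed by FANCD2 at 10.9%, BRCA2 at 13.2%, BRCA1 at 16.3% and BLM at 16.8%. RAD51AP1 stood at 21.5% and EXO1 at 21.7%, with the median gene at 17.9%. BARD1 stood at 50.8%, percentile 88.9, and PALB2 at 78.5%, percentile 97.1. Phase by phase, the mean shares of BARD1, PALB2 and RAD51AP1 lay above the median gene in all 4 phases and those of BRCA2, FANCD2 and FANCI below it in all 4. The other 3 genes changed sides. BRCA1 was above it in G1 and Early_S and below it in Late_S and G2, EXO1 was above it in G1 and Late_S (percentiles 70.6 and 59.8) and below it in Early_S and G2 (47.6 and 37.6), and BLM was below it in G2 (41.0) after percentiles of 50.3, 52.0 and 61.5. PALB2 and BRCA2, whose proteins bind each other, thus lay on either side of the median gene in every phase, and BARD1 and BRCA1 in Late_S and G2. A read with more T positions has more chances of a conversion, and covered T positions per read ran from 14.5 (BRCA1) to 24.4 (PALB2), with BARD1 at 21.0 and FANCI at 20.4. The part of T content in these shares was not tested.

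**Figure D2:**
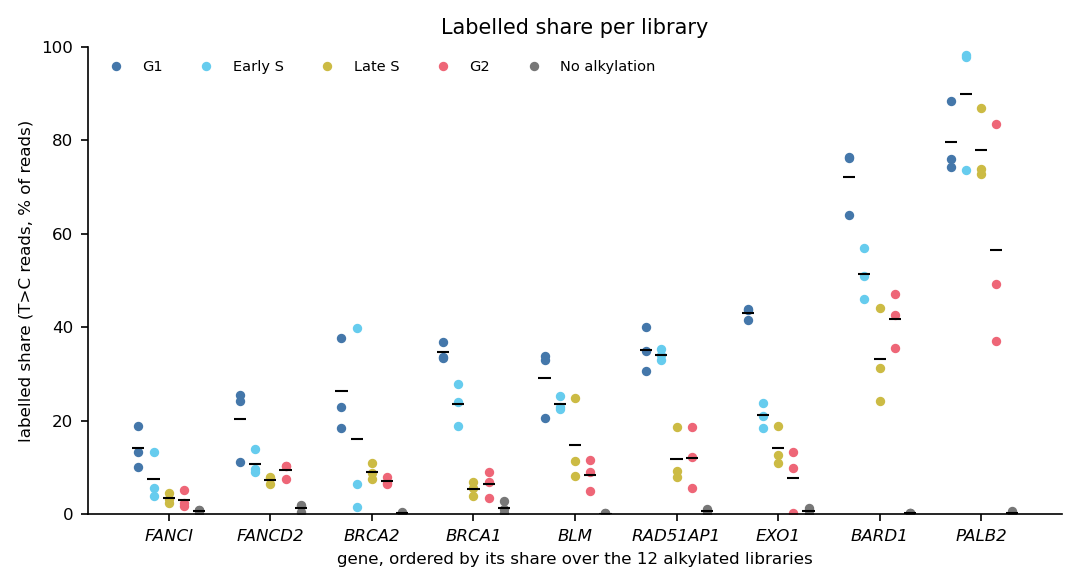
Labelled share of each gene (vertical axis, T>C reads as a percentage of its reads), with genes ordered from left to right by their share over the 12 alkylated libraries; each point is 1 library, coloured by group, and the bar is the group's mean (n = 3). The G1 mean is the highest of a gene's phases except for PALB2, and the grey No_alkylation points lie near 0.

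The median labelled share of all genes went from 28.9% in G1 through 22.4% in Early_S and 11.04% in Late_S to 10.4% in G2. The mean shares of all 9 genes were also lower in G2 than in G1, but not every step followed the median: PALB2 was at 79.6% in G1 and 90.002% in Early_S, and from Late_S to G2 BARD1 went from 33.2% to 41.8%, FANCD2 from 7.30% to 9.36%, BRCA1 from 5.47% to 6.45% and RAD51AP1 from 11.9% to 12.1%. BARD1 had shares of 76.5%, 64.0% and 76.2% in G1, 57.0%, 51.0% and 46.0% in Early_S, 24.2%, 44.2% and 31.3% in Late_S and 47.2%, 35.5% and 42.7% in G2. All G1 libraries lay above all later ones, but relative to all genes BARD1 was not called (adjusted p = 0.173 across phases). With its 3′ terminal region alone it was called (adjusted p = 0.0330). PALB2 kept most of its reads labelled in 3 phases: 76.1%, 74.2% and 88.4% in G1, 97.9%, 98.3% and 73.8% in Early_S, 74.0%, 72.9% and 86.9% in Late_S and 37.0%, 83.5% and 49.2% in G2. It was not called across phases (adjusted p = 0.301), but was without library 3 of Early_S (adjusted p = 0.0348).

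The other 6 genes had lower shares and none was called. RAD51AP1 went from means of 35.2% in G1 and 34.2% in Early_S to 11.9% in Late_S and 12.1% in G2, with every G1 and Early_S library above every later one. EXO1 went from 43.1% ± 1.29 (SD, n = 3) in G1 through 21.1% and 14.2% to 7.79% in G2, where library 3 held 1 T>C read (0.314%) and the others 13.3% and 9.77%. BLM went from 29.2% through 23.6% and 14.8% to 8.45%, FANCD2 from 20.3% through 10.8% and 7.30% to 9.36%, and FANCI from 14.1% through 7.50% and 3.38% to 3.11%. BRCA2 in Early_S showed how far libraries of 1 group could stand apart, with 1.56%, 6.55% and 39.9%. Across phases the adjusted p of these 6 ranged from 0.290 (RAD51AP1) to 0.810 (BLM), in a model that scales T>C and other reads each by its own factors and so removes the fall common to all genes.

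BRCA1 was the 1 gene of the 9 whose labelled share differed between phases by this test (adjusted p = 0.00365, where 14.7% of 11474 genes were called). Its shares were 33.5%, 36.9% and 33.4% in G1, 24.0%, 18.9% and 27.8% in Early_S, 3.84%, 5.67% and 6.89% in Late_S and 9.03%, 3.51% and 6.81% in G2. Each G1 library lay above each Early_S library, and each of those above all 6 later libraries. Against the same median gene, BRCA1 stood at percentile 59.2 in G1, 52.0 in Early_S, 21.4 in Late_S, then 30.3 in G2. The ratio of T>C to other BRCA1 reads, relative to all genes, was lower in Late_S than in G1 (log2 -1.68 ± 0.37, adjusted p = 0.00415, 7.57% of genes called) and than in Early_S (-1.27 ± 0.37, adjusted p = 0.0307, 8.12% called). It was higher in G1 than in G2 (1.45 ± 0.37, adjusted p = 0.0127, 8.73% called). The call across phases and that of Late_S against G1 held without any 1 library (adjusted p up to 0.0168 and 0.0317). Late_S against Early_S was lost without library 1 or 3 of Early_S or library 1 or 2 of Late_S (up to 0.146), and G1 against G2 without library 2 of either phase (up to 0.0736). In the 3 other pairs edgeR called 0 of the 9: Early_S against G1 (5.33% of genes called; 2 at an unadjusted p under 0.05), G2 against Late_S (0.0436%; 0) and G2 against Early_S (10.6%; 3).

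The nascent level, the T>C reads of a gene normalised to the depth of T>C reads (CPM on a scale of its own), gave 1 call across phases among the 9, again BRCA1 (adjusted p = 0.0293, 10.4% of 11474 genes called). Its nascent level was 91.3, 130 and 82.2 CPM in G1, 85.5, 80.1 and 104 in Early_S, 32.0, 45.7 and 52.0 in Late_S and 77.0, 26.6 and 44.5 in G2. All Late_S libraries lay below all G1 libraries (log2 -1.22 ± 0.35, adjusted p = 0.0350, 5.36% of genes called), while the level by all reads differed by 0.25 the other way without being called. The call across phases and that of Late_S against G1 were each lost in 5 of 12 fits that left out 1 library (adjusted p up to 0.115 and 0.202). These were library 1 or 2 of G1, 1 or 3 of Early_S or 1 of Late_S across phases, and any of G1 or 1 or 2 of Late_S in that pair. In the 5 other pairs of phases edgeR called 0 of the 9 by nascent level. The share of all genes called was 5.17% in Early_S against G1, 3.53% in Late_S against Early_S, 0.0523% in G2 against Late_S, 7.29% in G1 against G2 and 5.85% in G2 against Early_S. At an unadjusted p under 0.05 there were, in that order, 2, 1, 1, 1 and 2 of the 9. DESeq2 called BRCA1 in Late_S against Early_S (adjusted p = 0.0416) and in G1 against G2 (0.0394), and BARD1 in G2 against Early_S (0.0400). BARD1 missed the threshold across phases (adjusted p = 0.0592), with nascent levels of 130, 164 and 120 CPM in G1, 96.3, 106 and 92.0 in Early_S, 80.5, 107 and 85.5 in Late_S and 185, 135 and 142 in G2. Across phases DESeq2 did call BARD1 (adjusted p = 0.00944). So did edgeR without the filter on low counts (0.0449) and without library 2 of G2 (0.0471). Scaling T>C reads by all reads also gave the call (edgeR, 3.52e-06). RLE factors, the replicate block, the region of most reads and every other fit without 1 library left BARD1 uncalled.

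BRCA1 reads came from 2 places. The region at the 3′ end (chr17:43044295-43045802, hg38, minus strand, 50.7% of its reads) and an internal region 47140 bases upstream of that end (chr17:43091435-43094860, 43.6%) held most of them. Both showed the fall in labelled share. From G1 through Early_S and Late_S to G2 it was 31.1% ± 10.1, 18.3% ± 6.63, 4.75% ± 1.61 and 6.0% ± 5.02 in the 3′ terminal region (SD, n = 3). The internal region gave 37.4% ± 7.80, 28.0% ± 8.83, 5.98% ± 1.32 and 6.83% ± 3.80. Tested with the terminal region alone, on 8349 of the 16488 reads, BRCA1 was no longer called across phases (adjusted p = 0.161 for the labelled share and 0.279 for the nascent level) nor in Late_S against G1 (0.105 and 0.235).

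**Figure D3:**
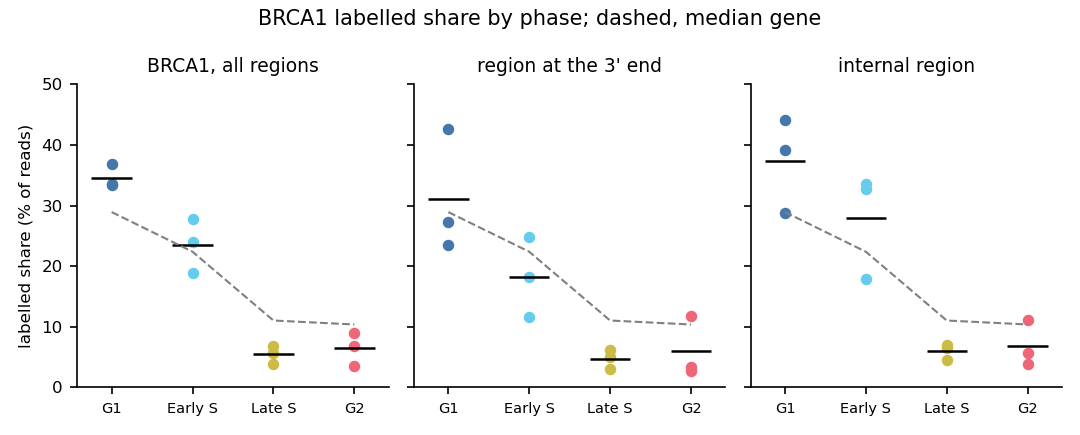
Labelled share of BRCA1 (vertical axis, T>C reads as a percentage of reads) by sorted phase, over all its regions, in the region at the 3′ end and in the internal region; points are libraries, bars are means (n = 3), and the dashed line is the median gene. In all 3 panels the Late_S mean lies below the median gene. The G1 mean lies above it in all 3, but 2 of 3 G1 libraries in the 3′ terminal region (23.5% and 27.4%) and library 2 in the internal region (28.86%) lie below it (28.94%).

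Several of the other genes also had reads away from their annotated 3′ end. RAD51AP1 had 24.5% of its reads in its terminal region (chr12:4558857-4560048), 43.5% in a region at chr12:4552983-4553147 and 30.6% in one at chr12:4548687-4548838. These regions were labelled at 17.3%, 30.5% and 12.5% over the 12 alkylated libraries, so the gene's share of 21.5% is an average over unlike regions. BARD1 had 68.1% in its terminal region (chr2:214725646-214729008) and 31.1% in an internal one (chr2:214780560-214781493), labelled at 53.7% and 46.5%. BRCA2 had 49.4% at the end (chr13:32398771-32400266) and 35.4% internally (chr13:32379317-32379495). The terminal regions of FANCI (chr15:89316397-89317261) and FANCD2 (chr3:10101188-10101930) held 81.8% and 86.9%, and that of PALB2 (chr16:23603160-23603654) 96.1%. EXO1 had 1 region (chr1:241889474-241889939), and BLM had 60.1% at the end (chr15:90815102-90816165) and 20.3% in an internal region (chr15:90760594-90761255).

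Comparing the level by all reads with and without alkylation asks whether the chemical step moved the count itself. BARD1 was far higher without it: 96.1, 121 and 115 CPM in the No_alkylation libraries against 24.7 to 55.6 CPM (median 36.3) in the 12 others, 3.04-fold (log2 1.63 ± 0.11, adjusted p = 1.07e-16). RAD51AP1 held 109, 120 and 133 CPM against 48.7 to 82.2 (log2 0.90 ± 0.10, adjusted p = 1.36e-10), and BLM 33.5, 35.2 and 31.2 against 10.5 to 28.5 (0.83 ± 0.17, adjusted p = 1.30e-04). For these 3 genes all No_alkylation libraries lay above all 12 alkylated ones. How many of all genes stand apart in this way was not counted, so the separation is a description of these genes only. PALB2 (20.2, 8.52 and 17.0 CPM, log2 1.19 ± 0.27), BRCA2 (29.3, 21.8 and 34.4 CPM, 0.71 ± 0.18) and BRCA1 (82.2, 104 and 94.0 CPM, 0.35 ± 0.10) were also higher, with overlap. The BRCA1 call was lost without library 2 of No_alkylation (adjusted p = 0.0653). EXO1, FANCD2 and FANCI were not called, with folds of 0.956, 0.945 and 0.974. In all, 6 of 9 genes were called, all higher, where 43.5% of 13972 genes were called in either direction and 22.5% as higher.

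Genes with a larger labelled share tended to be higher without alkylation in the whole table. The reads of the alkylated libraries are the divisor of both measures, so the measures are not independent. The part of this in the trend was not tested. Among genes with at least 100 reads on average the median log2 difference was -0.22 for 2667 genes labelled at 10% or less, -0.01 for 3201 genes up to 20%, 0.18 for 2711 genes up to 40%, 0.31 for 811 genes up to 60% and 0.39 for 523 genes above that. BARD1, PALB2, RAD51AP1, BLM and BRCA2 lay above the upper quartile of their own class, while EXO1 and FANCD2 lay below the median of theirs. Within BARD1 the 3′ terminal region was 3.98-fold higher without alkylation and the internal region 1.63-fold. In RAD51AP1 the 3 main regions were 1.76-fold, 1.88-fold and 1.83-fold higher. The phases in the No_alkylation cells are not stated, and their sums of gate markers were 445 to 514 CPM for G1 (CCNE1, CCNE2, CDC6, PCNA) and 1004 to 1047 CPM for G2/M. In the sorted groups the G1 markers summed to 462 to 515 CPM in G1, 283 to 327 in Early_S, 285 to 313 in Late_S and 260 to 311 in G2. The G2/M markers summed to 647 to 673 CPM in Early_S and 1064 to 1185 in Late_S. BARD1, RAD51AP1 and BLM were higher in the No_alkylation libraries than in every library of every phase, and the part of alkylation in this was not tested apart from other differences in handling.

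**Figure D4:**
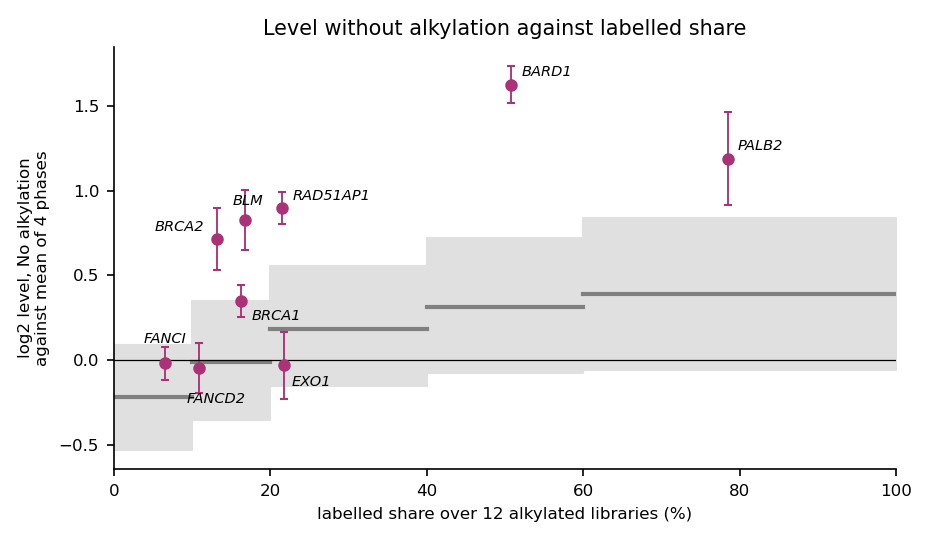
Log2 difference in steady-state level between the No_alkylation libraries and the mean of the 4 phases (vertical axis; points with SE) against the labelled share over 12 alkylated libraries (horizontal axis, %). Grey lines and bands are the median and quartiles of all genes in 5 classes of labelled share. BARD1 at 1.63 and PALB2 at 1.19 lie highest, and EXO1, FANCD2 and FANCI lie near 0. Reads of the alkylated libraries are the divisor on both axes.

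Lists of related genes were counted the same way, without the 9. Of 44 other genes of homologous recombination 17 were called across phases by level, of 19 other Fanconi anaemia genes 9, and of 19 end joining genes measured 4, beside 34.1% of all genes. In Early_S against G1 the homologous recombination list had 6 of 44 higher and 2 lower with a median of 0.11, beside 24.3% of all genes called in either direction and a median of 0.00, the Fanconi list 4 higher and 2 lower with a median of -0.14, and the end joining list 3 higher and no other call, with a median of -0.05. By labelled share across phases 7 of 42 tested homologous recombination genes and 4 of 19 Fanconi genes were called, beside 14.7% of all genes. In Late_S against G1 4 genes of each of these lists were called, each with a lower labelled share, where 7.57% of all genes were called and 52.6% of those were higher. BRIP1 and SLX4 are on both lists, so the lists are not separate sets.

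The genes reported here with the smallest p across phases by level, up to 3 of each list, showed unlike courses. RAD51C, a recombination mediator, held 162 ± 14.8 CPM in G1, 177 ± 13.1 and 147 ± 8.09 in the S phase gates and 115 ± 5.07 in G2 (adjusted p = 1.93e-05). BRIP1, the helicase that binds BRCA1, went from 18.1 ± 2.05 CPM through 22.7 ± 3.47 and 33.7 ± 0.580 to 29.6 ± 2.45 (adjusted p = 0.00116). BABAM2, a subunit of the BRCA1-A complex, was lowest in G1 (47.1 ± 3.04 CPM) and highest in Early_S (73.9 ± 3.22, log2 0.65, adjusted p = 4.10e-04). UBE2T, the E2 enzyme that ubiquitinates FANCD2 and FANCI, went from 49.5 ± 3.82 CPM in G1 to 84.4 ± 6.75 in G2 (adjusted p = 1.23e-05 across phases). WDR48, a cofactor of the enzyme that removes that ubiquitin, rose by 0.73 (log2, adjusted p = 0.00271) from G1 to Early_S and FANCG, a core complex subunit, by 0.59 (adjusted p = 1.75e-04). Both were lowest in G1, as FANCD2 and FANCI were, and as BRIP1, BABAM2 and UBE2T were. Of the end joining list, XRCC6, which encodes Ku70, rose from G1 to Early_S by 0.20 (log2, adjusted p = 0.0202) and LIG3, a DNA ligase, by 0.64 (adjusted p = 0.0131). LIG3 was also lowest in G1 (21.0 CPM), whereas RAD51C and XRCC6 were not.

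For each of the 6 genes called by level, the most similar courses were sought among 10105 genes of at least 5 CPM by the root mean square difference of centred log2 levels over the 12 alkylated libraries. FANCI was closest to ARHGEF2 (0.0804) and LONP1 (0.0950), where the median gene stood at 0.390. LONP1 held 33.8, 50.1, 51.8 and 46.8 CPM on average in G1, Early_S, Late_S and G2. FANCD2 was closest to FKBP5 (0.151) and FAM114A2 (0.159), and BARD1 to CREG1 (0.144) and CETN2 (0.149). BLM was closest to NCOA3 (0.194) and PPFIA1 (0.228). EXO1 was closest to COMMD2 (0.254) and MFSD5 (0.258), and PALB2 to VGLL4 (0.271) and NFE4 (0.313). These distances were larger, but so was that of the median gene, at 0.531 for EXO1 and 0.700 for PALB2. The measure is a description over 12 libraries and says nothing of shared function or control.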

How the data were processed

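Per the file headers, the authors counted reads with slamdunk 0.2.4, and per the submitters' processing notes the genome build was hg38. The regions carry the names of a merged Ensembl release 90 annotation. The deposited read counts, T>C read counts, multimapped read counts and counts of covered and converted T positions are raw whole numbers. The aligner settings, the rule that makes a read a T>C read, any variant filter and the use of strand remain not given in the sources used here. Reads carry no molecular identifiers, so depth covers counting error only.

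Regions were summed by name in each library. Separate fits were made of all reads and of T>C reads in the 12 alkylated libraries with edgeR 4.0.16 (R 4.3.3): TMM factors, filterByExpr (minimum count 10, total 15), quasi-likelihood F-test across phases and 2-sided tests of the 6 pairs of phases, with Benjamini-Hochberg adjustment over all genes tested in each and a threshold of 0.05. CPM in the text are counts scaled by these factors; those that include No_alkylation libraries use factors over 15 libraries. For the labelled share, 1 edgeR model held T>C and other reads of a library as matched columns, each scaled by its own TMM factors; log2 values are changes in that ratio. Alkylated and No_alkylation libraries were compared by the same model, scaled by total reads. SE is the size of a log2 change divided by the root of its F, and ± after CPM or percentages is SD over 3 libraries. The fits were tested on simulated data. Replicates of a group differed by more than counting noise (chi-square per degree of freedom 11.4 to 20.9), so none were merged.

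The genes, lists, motifs and tests were chosen with earlier results of these data known. Genes named beside the 9 were, for each called gene, the 2 nearest in level, and from each list up to 3 with the smallest p across phases; 1 end joining gene so chosen is not reported here. Alternatives were RLE factors, no filter, the region with the most reads, DESeq2 1.42.0, scaling T>C reads by the factors of all reads, a replicate block and leaving out each library. NHEJ1 and SHLD3 of the end joining list, 2 of 21 genes, and the FANCI promoter were not analysed here.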

Additional observations from a re-analysis of the deposited data

How the results depend on the processing

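RLE factors changed no call of the 9 genes (edgeR). The replicate block lost 0 of 39 calls and added BLM in G1 against G2 (log2 -0.64, adjusted p = 0.0474). Deviations of same-numbered libraries correlated only weakly, at -0.017 to 0.031 in 18 pairs, none over 0.1. Even so, 9 of 12 libraries correlated best with their own number. Whether equal numbers pair the libraries is therefore not settled. The numbers below count called genes of the 9. With the region of most reads alone, steady-state calls were 3 across phases and 0 in G2 against Early_S, nascent calls 0 across phases and in Late_S against G1, and labelled share calls 0 in Late_S against Early_S and in G1 against G2. Nascent calls were 2 across phases, 1 in Late_S against Early_S and 1 in G1 against G2 both without a filter and with DESeq2, which also made 1 in G2 against Early_S. Scaling T>C reads by all reads shifted the median of all genes by -0.33 (Early_S against G1), -0.91 (Late_S against Early_S), 1.27 (G1 against G2), -1.22 (Late_S against G1) and -0.95 (G2 against Early_S). Nascent calls were then 6 across phases and, in the same order of pairs, 1, 3, 7, 6 and 3, and labelled share calls 7 across phases, 2 in Late_S against Early_S, 8 in G1 against G2, 6 in Late_S against G1 and 5 in G2 against Early_S. Nascent calls of all genes that were higher went from 71.3% to 24.7%, 48.6% to 0.262%, 39.8% to 99.0%, 64.6% to 1.01% and 45.6% to 0.400% in that order. All-gene nascent calls across phases went from 1193 to 6447 (1843 with DESeq2) and share calls from 1689 to 7114. Under this scaling BARD1 reversed to 1.07 by nascent level and FANCD2 to 1.26 by labelled share, both in G1 against G2. TMM factors for each read kind kept 3 of the 9 labelled share calls against No_alkylation, BARD1, PALB2 and BLM (3731 of all genes called, against 10901). FANCI was called in the other direction (log2 -1.45, edgeR adjusted p = 0.0480). BRCA1 (-0.77) and FANCD2 (-1.30) also changed sign and were not called. Such factors take the background T>C reads to equal the alkylated ones. Leaving out 1 library gave, by steady-state level, 3 to 5 calls across phases, 0 to 2 in Late_S against Early_S, 1 to 3 in G1 against G2, 2 to 4 in Late_S against G1 and 0 to 1 in G2 against Early_S. By nascent level it gave 0 to 2 across phases and 0 to 1 in Late_S against Early_S, G1 against G2, Late_S against G1 and G2 against Early_S. By labelled share it gave 1 to 2 across phases, 0 to 1 in Early_S against G1, Late_S against Early_S and G1 against G2, and 0 to 2 in G2 against Early_S. Where a call was lost the cause was not tested. For G2 against Late_S, all genes called by level numbered 20, and 67 without a filter, 48 with the block and 108 with DESeq2. Reads that map to 1 place gave the same level within 1 SD in 36 of 36 values; single regions moved 19 of 75 labelled shares by more. Depth limits PALB2, BRCA2, EXO1 and BLM most: the widest 95% Wilson interval of a labelled share in 1 library reached 11.99 points to a side for PALB2 and 2.42 for FANCI. Such intervals cover counting error only. Libraries of 1 group could lie further apart, as those of BRCA2 in Early_S did (1.56% to 39.9%).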
